A study of Rattus norvegicus with 36 samples.

Results

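*Usp15*, *Usp4* and *Usp11* were followed in H9C2 cells, a rat cardiac myoblast line, after transfection with a miR-125b mimic or 1 of 4 of its 3′ isomiRs, which are miRNA forms that end at another base. The genes were taken by name, and each name belonged to 1 gene identifier, so there were 3 genes of 24275 listed. *Usp15* was chosen by its read counts under Trim AGU and miR-125b in hypoxia, and *Usp4* and *Usp11* were added as its closest paralogs. Every *Usp15* comparison that holds either of those groups is therefore given as a description, with no p-value. The cells received 25 nmol/L of mimic control (MC), of miR-125b, of the extended isomiR Plus A, or of 1 of the trimmed isomiRs (Trim A, AG and AGU), and were then kept in normoxia or for a day in hypoxia. Hypoxia was applied in serum-free, low-glucose medium and normoxia in fresh culture medium, so oxygen and medium cannot be told apart in any comparison of the conditions. Read counts were used for 3 libraries in each of 11 groups, 33 libraries in all, and the counts of the Normoxia MC libraries were not analysed here.

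The mature rat miR-125b sequence was taken from RefSeq (rno-miR-125b-5p, chr11:29732588-29732609, plus strand, GRCr8), and the isomiRs were written from it. The sample titles number the trimmed isomiRs from Trim 1 to Trim 3, and these were read as Trim A, Trim AG and Trim AGU in the order of the treatment description, with the removed letters read from the 3′ end inwards. No base is given in the titles, so this reading is an assumption wherever a trimmed mimic is named. The 5 sequences are shown because, as written here, they differ only at the 3′ end. Other features of the mimics are not given in the labels. The seed, bases 2 to 8, is in capitals and is the same CCCUGAG in each.
Plus A: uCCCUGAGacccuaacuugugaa
miR-125b: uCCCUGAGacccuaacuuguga
Trim A: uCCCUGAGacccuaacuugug
Trim AG: uCCCUGAGacccuaacuugu
Trim AGU: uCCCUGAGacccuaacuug
Their lengths run from 23 bases in Plus A to 19 bases in Trim AGU.

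The products of the 3 genes are ubiquitin-specific proteases, cysteine proteases that take ubiquitin off other proteins and so change their stability or activity. They share an N-terminal DUSP domain, ubiquitin-like folds and a catalytic domain, and are close enough in sequence to be treated as paralogs. USP15 is known for acting on receptor-activated SMADs and on the TGF-beta receptor complex, and it associates with the COP9 signalosome. USP4 acts on the type I TGF-beta receptor and, with SART3, on the spliceosomal protein PRPF3. USP11 is known from the DNA damage response, with BRCA2 and PALB2, and from TGF-beta signalling. In heart muscle, ubiquitin-dependent turnover and TGF-beta signalling both take part in the response to injury. A miRNA lowers its targets mainly by pairing of its seed with the mRNA.

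Library totals ran from 28361216 to 42672584 counts (median 29923694), and the Hypoxia Trim AG libraries were the deepest, at 39940087 or more. The myoblast label was checked against marker genes: vimentin (*Vim*) lay between 2468 and 4624 CPM (counts scaled to a common library total) and the myogenic factor *Myod1* between 17.1 and 146 CPM, and *Myog*, a later myogenic factor, between 10.4 and 359 CPM. *Des* (desmin) stayed under 5 CPM, and *Myf5* and *Cdh2* (N-cadherin) stayed under 1 CPM. Of the cardiac markers, *Gata4* (8.72 to 16.4 CPM), *Mef2c* and *Tnnt2* were detected in every library, whereas *Myh6*, *Nppa* and *Nkx2-5* were under 1 CPM in all. *Actc1*, a further cardiac marker, ran from 0.066 to 35.0 CPM, with a median of 0.486 CPM. *Ptprc*, a leukocyte marker, and *Epcam*, an epithelial marker, were also under 1 CPM in every library. The endothelial markers *Pecam1* and *Cdh5* were not among the genes listed. The Hypoxia Trim AGU libraries stood apart from one another. Their mean distance (root mean square difference of log2 CPM over genes) was 0.859, compared with 0.450 to 0.530 in the other 10 groups. Replicate 2 was the far one, at 1.02 from replicate 1 and 0.971 from replicate 3, and its TMM factor, the edgeR scaling for composition, was 0.886 while that of every other library lay between 0.955 and 1.06. A pair of normoxia libraries went against their labels. Over 306 genes that separated Plus A from miR-125b in hypoxia, *Usp15* left out, a score was made that was positive on the Plus A side (0.425 to 0.536 in the Hypoxia Plus A libraries) and negative on the miR-125b side (-0.482 to -0.452). Replicate 1 of the libraries labelled Normoxia Plus A had -0.154, and replicates 2 and 3 had 0.113 and 0.196. Replicate 1 of the libraries labelled Normoxia miR-125b had 0.132, and replicates 2 and 3 had -0.181 and -0.105. The labels were kept as given, and the tests, family ranks, gene lists and likeness values that rest on these libraries were also computed without both. The labels do not say that replicates were separate cultures, so the p-values measure only the spread between these libraries.

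The tables place *Usp15* (ENSRNOG00000023202) on the plus strand of chromosome 7 from 66595742 to 66687278, *Usp4* (ENSRNOG00000054863) on the plus strand of chromosome 8 from 117126692 to 117171012, and *Usp11* (ENSRNOG00000009049) on the minus strand of chromosome X from 1687811 to 1704033. The build is not named in the sources used here. All 3 are annotated as protein coding, with listed lengths of 4352, 4096 and 3450 bases. The libraries were not stranded, so reads from genes that overlap on either strand cannot be told apart. The genes that overlapped *Usp15* reached at most 3 counts in a library, and *LOC498675*, which overlaps *Usp4*, reached at most 159.

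*Usp15* was the gene of the 3 that moved with the mimic. In hypoxia it stood at 66.2, 70.4 and 70.5 CPM in the 3 MC libraries. Under miR-125b it was 19.0, 18.9 and 19.0 CPM, and under Plus A it was 44.5, 42.1 and 34.4 CPM. Both mimics that keep the last A of miR-125b thus left *Usp15* below every MC library. Under Trim A it was 97.9, 118 and 111 CPM. Under Trim AG it was 109, 141 and 128 CPM, and under Trim AGU it was 90.6, 101 and 109 CPM. All 9 libraries that received a trimmed mimic in hypoxia were above every MC library. The highest group mean in hypoxia was 6.65 times the lowest. This ratio is a description, because the lowest group, under miR-125b, was used to choose the gene.

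**Figure D1:**
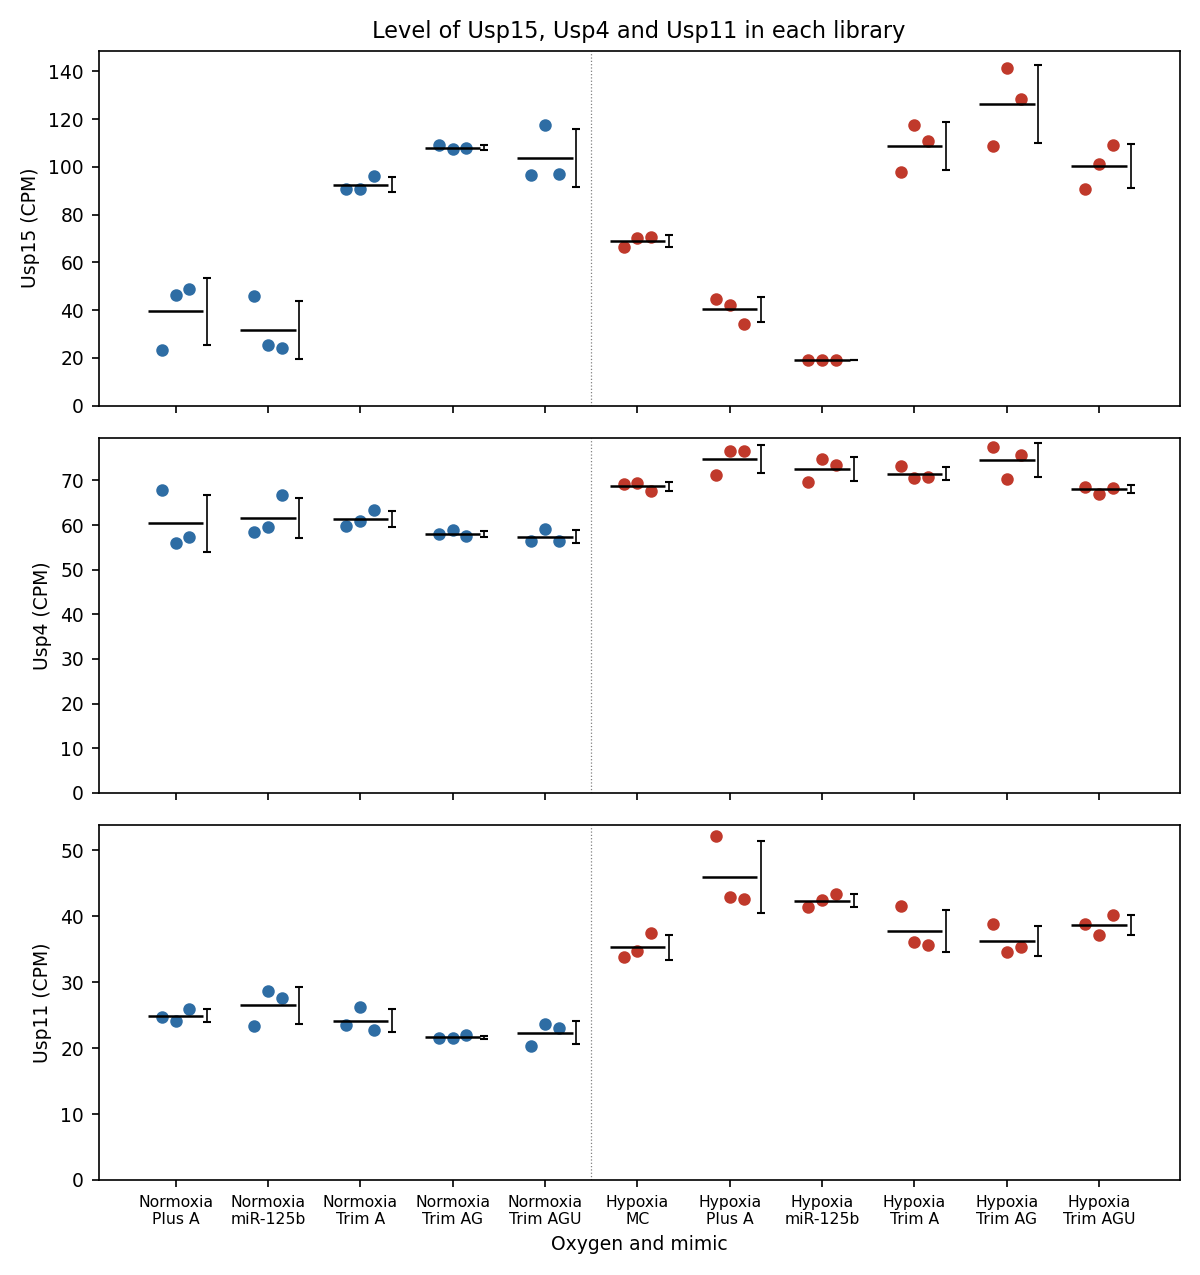
Library-size CPM of *Usp15*, *Usp4* and *Usp11* (vertical axes) in the 3 libraries of each of 11 groups, with the group mean as a line and the SD as a bar, normoxia in blue and hypoxia in red. *Usp15* ran from 19.0 CPM under miR-125b to 126 CPM under Trim AG in hypoxia (group means). This range is a description, because Hypoxia miR-125b was used to choose the gene. *Usp4* stayed between 56.0 and 77.5 CPM in all libraries, and *Usp11* was higher in hypoxia under each mimic.

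Compared with MC in hypoxia, *Usp15* was down-regulated by Plus A (40.3 ± 5.28 against 69.0 ± 2.40 CPM, mean ± SD, n = 3 each). The log2 fold change was -0.75 (SE 0.09, 95% interval -0.95 to -0.56, adjusted p = 4.6e-05, edgeR quasi-likelihood test). It was up-regulated by Trim A, by 0.70 on the log2 scale (SE 0.09, 0.50 to 0.90, edgeR adjusted p = 0.00033), and by Trim AG, by 0.94 (SE 0.11, 0.69 to 1.18, edgeR adjusted p = 0.0001). These 3 comparisons were all that could be tested, and all 3 were called, where a call needs an adjusted p under 0.05 and a change of at least 1.5-fold. Calls were frequent in these comparisons: of all genes tested, 24.8% were called under Plus A, 28.1% under Trim A and 37.2% under Trim AG. As a description only, the log2 fold change was -1.83 (SE 0.05) with miR-125b and 0.69 (SE 0.12) with Trim AGU, where 21.9% and 23.8% of genes were called. Without replicate 2 of Hypoxia Trim AGU the latter was 0.62. The 5 comparisons share the MC libraries. In these bulk samples a change in the share of cells that express a gene and a change in RNA per cell cannot be told apart.

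Against miR-125b itself in hypoxia, *Usp15* was higher with each of the other 4 mimics, and none of their libraries overlapped those of miR-125b. These are descriptions, because the Hypoxia miR-125b libraries were used to choose the gene. The mean CPM was 2.13 times that of miR-125b with Plus A, 5.73 times with Trim A, 6.65 times with Trim AG and 5.29 times with Trim AGU. The log2 fold changes were 1.07, 2.52, 2.75 and 2.50. Of all genes tested against miR-125b, 2.03% were called under Plus A, 0.873% under Trim A, 19.3% under Trim AG and 3.75% under Trim AGU. Leaving out replicate 2 of Hypoxia Trim AGU gave 2.43 in place of 2.50, and leaving out replicate 1 gave 2.60.

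The normoxia counts were not among those by which *Usp15* was chosen, and they were tested. Earlier results of these data were known at the choice, so the tests are not fully independent of it. The libraries labelled miR-125b had 45.8, 25.4 and 24.3 CPM, and those labelled Plus A had 23.5, 46.3 and 48.9 CPM. In each group replicate 1 was at the level of the other group's replicates 2 and 3. Under Trim A *Usp15* was 90.7, 90.6 and 96.0 CPM. Under Trim AG it was 109, 107 and 108 CPM, and under Trim AGU it was 96.7, 118 and 96.8 CPM. Every library with a trimmed mimic was again above every library labelled miR-125b or Plus A.

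*Usp15* was up-regulated in normoxia by each trimmed isomiR compared with miR-125b. The mean CPM was 2.90 times as high with Trim A (log2 fold change 1.54, SE 0.20, edgeR adjusted p = 0.0113), 3.40 times with Trim AG (1.72, SE 0.21, edgeR adjusted p = 0.00024) and 3.26 times with Trim AGU (1.70, SE 0.22, edgeR adjusted p = 0.00075). The percentage of all genes called was 0.414% under Trim A, 13.9% under Trim AG and 11.4% under Trim AGU. The Trim A call was lost without replicate 2 of Normoxia Trim A (log2 fold change 1.55, edgeR adjusted p = 0.0596), with a nearly unchanged difference. Plus A and miR-125b did not pass the test in normoxia (0.32, SE 0.32, 95% interval -0.40 to 1.05, edgeR adjusted p = 0.997), in a comparison where 0% of genes were called, 0 of 14781, with 404 at an unadjusted p under 0.05 and 1 gene called by DESeq2. Without both first replicates, an alternative chosen after seeing the data, Plus A was above miR-125b by 0.96 (edgeR adjusted p = 0.000428), where 1.12% of genes were called. The trimmed isomiRs were then above miR-125b by 1.90, 2.08 and 2.05.

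**Figure D2:**
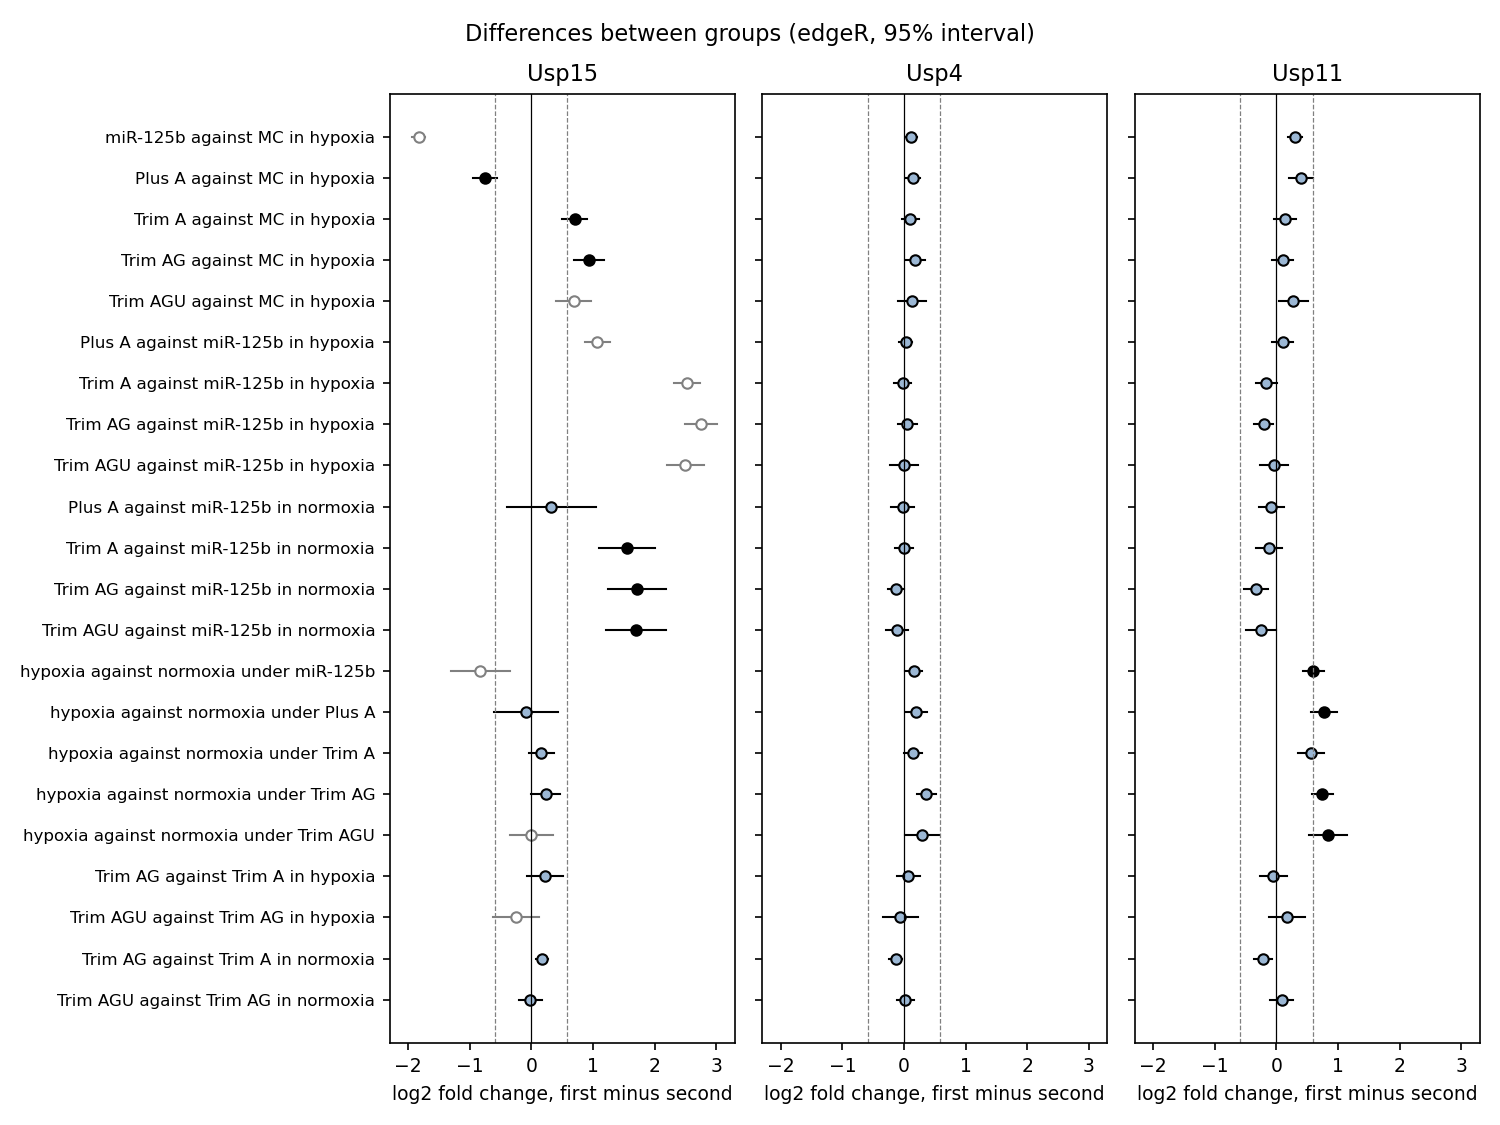
Log2 fold change of each gene with its 95% interval (horizontal axes) in the 22 comparisons of groups (rows), with dashed lines at 1.5-fold. Filled black points were called, blue points were tested and not called, and pale points are *Usp15* descriptions with no test. *Usp15* was called 6 times in 13 tests, *Usp11* 4 times, each time between hypoxia and normoxia, and *Usp4* never. Of all genes tested, 0% to 37.2% were called, depending on the comparison.

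Beside the difference of 1.54 between Trim A and miR-125b in normoxia, those between the trimmed isomiRs were small for *Usp15*, and the steps were not tested against each other. From Trim A to Trim AG the log2 fold change was 0.22 in hypoxia (SE 0.13, 95% interval -0.07 to 0.52, edgeR adjusted p = 0.285). In normoxia it was 0.17 (SE 0.04, 0.07 to 0.27, edgeR adjusted p = 0.0158), under the 1.5-fold limit. From Trim AG to Trim AGU it was -0.02 in normoxia (SE 0.08, -0.21 to 0.17, edgeR adjusted p = 0.918) and, as a description, -0.25 in hypoxia. These steps called 9.43% and 0.436% of all genes in hypoxia and 9.14% and 2.84% in normoxia. None of the 3 genes was called in the 11 tests of these steps by edgeR or DESeq2, and 3 of the 11 had an unadjusted p under 0.05.

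*Usp15* was not called between hypoxia and normoxia in any of the 3 mimics that could be tested, by edgeR or by DESeq2, and none had an unadjusted p under 0.05. The log2 fold change was -0.09 with Plus A (SE 0.23, edgeR adjusted p = 0.782), 0.16 with Trim A (SE 0.09, edgeR adjusted p = 0.17) and 0.23 with Trim AG (SE 0.11, 95% interval -0.01 to 0.47, edgeR adjusted p = 0.091). Without both first normoxia replicates the Plus A value was -0.37 (edgeR adjusted p = 0.0156), still under 1.5-fold. As a description, hypoxia minus normoxia was -0.83 with miR-125b, or -0.47 without both, and -0.00 with Trim AGU. Of all genes, 20.9% were called under miR-125b, 22.8% under Plus A, 26.5% under Trim A, 32.8% under Trim AG and 27% under Trim AGU.

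Set in order over the 11 groups, *Usp15* was lowest under miR-125b (19.0 CPM in hypoxia, 31.8 in normoxia) and Plus A (39.5 CPM in normoxia, 40.3 in hypoxia). Each of these normoxia means includes a replicate 1 that went against its label. Hypoxia MC followed at 69.0 CPM, and the 6 trimmed groups lay from 92.4 CPM (Normoxia Trim A) to 126 CPM (Hypoxia Trim AG). The libraries of neighbouring groups overlapped except at 3 places, between both miR-125b groups, between Hypoxia Plus A and Hypoxia MC, and between Hypoxia MC and Normoxia Trim A. Among the 6 trimmed groups neighbours in the order overlapped, but groups further apart did not always: the Normoxia Trim A libraries (90.6 to 96.0 CPM) were below all those of Normoxia Trim AGU, Normoxia Trim AG, Hypoxia Trim A and Hypoxia Trim AG. In normoxia the only values for MC are the authors' means of their normalized signal, without SD or n, in a table with Plus A: 1179 for Plus A and 2441 for MC, a ratio of 0.483. Normoxia Plus A replicate 1 went against its label (23.5 CPM beside 46.3 and 48.9), and no such ratio without it is available. In the same table the ratio was 1.09 for *Usp4* and 1.23 for *Usp11*.

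*Usp4* had the narrowest range of the 3. In hypoxia the MC libraries had 69.1, 69.3 and 67.5 CPM. The miR-125b libraries had 69.6, 74.8 and 73.4 CPM, and the Trim AGU libraries 68.6, 66.9 and 68.4 CPM. The Trim AGU libraries overlapped those of MC, and those of miR-125b were at or above the MC range. In normoxia *Usp4* was 58.5, 59.5 and 66.7 CPM under miR-125b and 56.5, 59.1 and 56.5 CPM under Trim AGU, and every normoxia group mean (57.4 to 61.6 CPM) was below every hypoxia group mean (68.0 to 74.8 CPM). The highest group mean was 1.30 times the lowest. For *Usp15* it was 6.65 times, a description, because the lowest group, Hypoxia miR-125b, was used to choose that gene. Over the normoxia groups the ratios were 1.07 for *Usp4* and 3.40 for *Usp15*. *Usp4* was called in 0 of 26 tests by edgeR and by DESeq2, with 8 at an unadjusted p under 0.05 and 6 at an adjusted p under 0.05. The share of all genes called in these fits ran from 0% (Plus A against miR-125b in normoxia) to 37.2% (Trim AG against MC in hypoxia). It was 21.9% or more in each comparison with MC and 20.9% or more in each between hypoxia and normoxia. The highest log2 fold change of *Usp4* was 0.37, between hypoxia and normoxia under Trim AG (edgeR adjusted p = 0.0022). Without both first normoxia replicates the values between hypoxia and normoxia were 0.12 under miR-125b and 0.27 under Plus A (edgeR adjusted p = 0.00579), and those against miR-125b in normoxia ran from -0.16 to -0.03. Against MC it ran from 0.10 with Trim A to 0.18 with Trim AG (edgeR adjusted p = 0.046). With Trim AGU its direction depended on the scaling, since the ratio of library-size CPM to MC was 0.990 and the TMM-scaled log2 fold change 0.13 (edgeR adjusted p = 0.33).

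*Usp11* followed the culture condition. Under miR-125b it was 23.3, 28.6 and 27.6 CPM in normoxia and 41.4, 42.5 and 43.3 CPM in hypoxia. Under Trim AG it was 21.5, 21.6 and 21.9 CPM in normoxia and 38.9, 34.5 and 35.3 CPM in hypoxia. Under Trim AGU it was 20.3, 23.6 and 23.0 CPM in normoxia and 38.8, 37.1 and 40.2 CPM in hypoxia. The hypoxia and normoxia libraries overlapped under none of the 5 mimics. *Usp11* was up-regulated in hypoxia by 0.60 with miR-125b on the log2 scale (SE 0.08, edgeR adjusted p = 0.00018), 0.77 with Plus A (SE 0.09, edgeR adjusted p = 9.7e-05), 0.75 with Trim AG (SE 0.08, edgeR adjusted p = 5.4e-05) and 0.84 with Trim AGU (SE 0.13, edgeR adjusted p = 0.0045). With Trim A it was 0.56 (SE 0.09, edgeR adjusted p = 0.0012), under the 1.5-fold limit. The miR-125b value fell under that limit without replicate 1 of Normoxia miR-125b (0.51) and without replicate 3 of Hypoxia miR-125b (0.58). The Plus A value was 0.74 without both first normoxia replicates. Without replicate 2 of Hypoxia Trim AGU the Trim AGU value was 0.80.

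Differences of *Usp11* between mimics were smaller. Compared with MC in hypoxia its log2 fold change was 0.30 with miR-125b (edgeR adjusted p = 0.00039) and 0.40 with Plus A (edgeR adjusted p = 0.0026), both under 1.5-fold. With Trim A, Trim AG and Trim AGU the log2 values were 0.14, 0.10 and 0.28. Without replicate 2 of Hypoxia Trim AGU the last was 0.24 (edgeR adjusted p = 0.0304). Compared with miR-125b, Trim AG had the lowest values, -0.21 in hypoxia (edgeR adjusted p = 0.043) and -0.33 in normoxia (edgeR adjusted p = 0.013), or -0.42 without both first replicates (edgeR adjusted p = 0.002). No difference between mimics was called for *Usp11* or *Usp4*. In a test of whether the difference between an isomiR and miR-125b itself differed between hypoxia and normoxia, *Usp4* and *Usp11* were called in 0 of 8 tests by edgeR and by DESeq2, and 0 had an unadjusted p under 0.05. The count was also 0 of 8 without both first normoxia replicates. These interaction tests called 0.0193% of all genes under Plus A, 0.605% under Trim A, 11.3% under Trim AG and 0.966% under Trim AGU.

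Levels were compared between the 3 genes by FPKM, which scales counts by gene length and library depth, as the authors deposited it. Over the 33 libraries the median was 21.4 FPKM for *Usp15*, 16.4 for *Usp4* and 9.49 for *Usp11*. In Hypoxia MC *Usp15* (14.9 ± 0.52 FPKM, SD, n = 3) was close to *Usp4*, at 0.95 times its level. Under miR-125b in hypoxia *Usp15* was at 4.19 ± 0.022 FPKM and 0.25 times the level of *Usp4*, and it held 12.7% of the summed FPKM of the 3 genes, compared with 37.0% under MC. With the trimmed mimics *Usp15* was the highest of the 3 in group mean, at 1.39 to 1.75 times *Usp4* and 45.3% to 54.8% of the sum. The largest single share of the 3 was that of *Usp4* under miR-125b and Plus A and that of *Usp15* under the trimmed mimics, as a description of the levels. The *Usp4* group means stayed between 14.1 and 17.9 FPKM and those of *Usp11* between 6.26 and 12.7 FPKM.

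**Figure D3:**
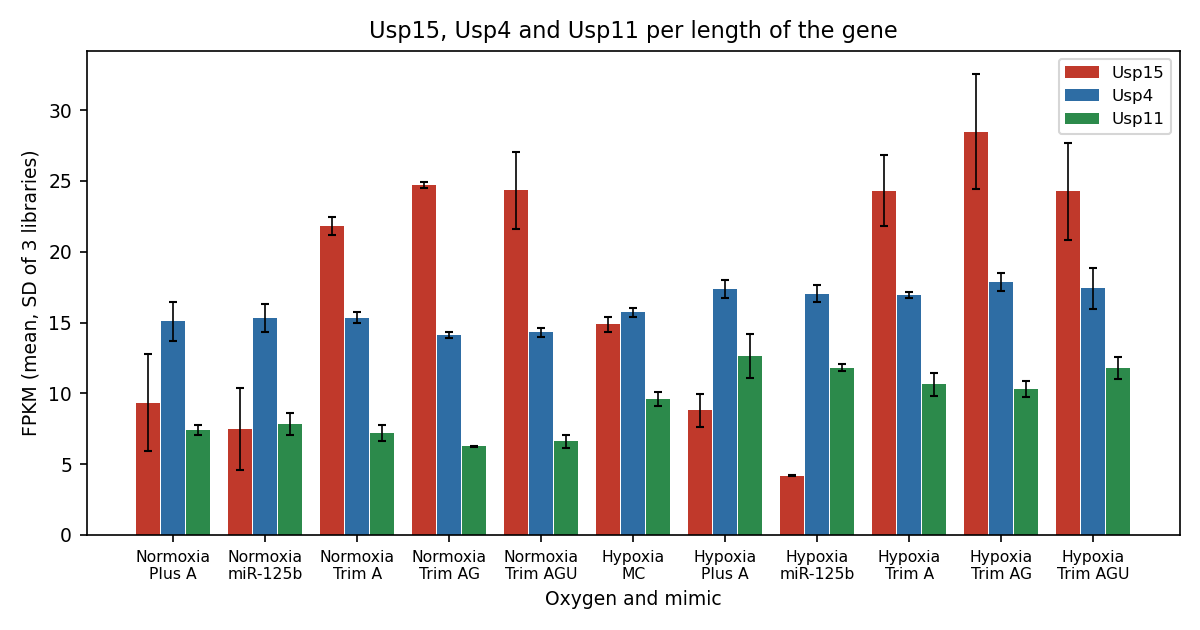
Mean FPKM (vertical axis, bars from 0, SD as error bars, n = 3) of *Usp15*, *Usp4* and *Usp11* in each of 11 groups. The *Usp15* bar is lower than that of *Usp4* in both miR-125b and both Plus A groups, close to it in Hypoxia MC (ratio 0.95) and higher in the 6 trimmed groups (ratios 1.39 to 1.75).

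The other ubiquitin-specific proteases were taken as the family background, from a list of 47 names of which 43 were listed. By median FPKM *Usp15* was 10th, *Usp4* 14th and *Usp11* 21st of the 46 family genes, with *Usp14*, the proteasome-bound member, first at 62.7 FPKM. Compared with MC in hypoxia 41 others were tested. Called up and down were 1 and 2 with miR-125b, 6 and 2 with Plus A, 2 and 3 with Trim A, 6 and 2 with Trim AG, and 3 and 1 with Trim AGU. These are 7.32%, 19.5%, 12.2%, 19.5% and 9.76% of the family genes tested, in that order. Of all genes tested, 21.9%, 24.8%, 28.1%, 37.2% and 23.8% were called. Each family share is the smaller of the pair, and this difference was not tested. *Usp10*, which deubiquitinates p53, was up-regulated by all 5 mimics (0.60 to 0.90 on the log2 scale). *Usp37*, a cell cycle protease, rose with Plus A (0.76), Trim A (0.89), Trim AG (1.35) and Trim AGU (0.75). *Usp12*, which works with WD-repeat cofactors, fell with miR-125b (-1.13), Plus A (-1.01) and Trim A (-0.79). None of these 3 changed direction between miR-125b and the trimmed mimics as the *Usp15* values did. This is a description, because the *Usp15* value with miR-125b was used to choose the gene. Another family gene, *Usp31*, also changed sign, from -0.14 with miR-125b to 0.27, 0.49 and 0.12 with Trim A, Trim AG and Trim AGU. By size of the log2 fold change against MC, *Usp15* was 5th of 44 with Plus A and 4th for both Trim A and Trim AG, and, as a description, 1st with miR-125b and 4th with Trim AGU. Against miR-125b in normoxia it was 1st of the family genes tested with all 4 isomiRs, also without both first replicates. USP20, USP32 and USP33 share the DUSP domain. Their 3 genes were called in 0 of the 5 comparisons with MC by edgeR and by DESeq2, where edgeR called 21.9% to 37.2% of all genes. By edgeR, 1 of the 3 was at an unadjusted p under 0.05 with Plus A, 3 with Trim AG and 0 with the other mimics.

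**Figure D4:**
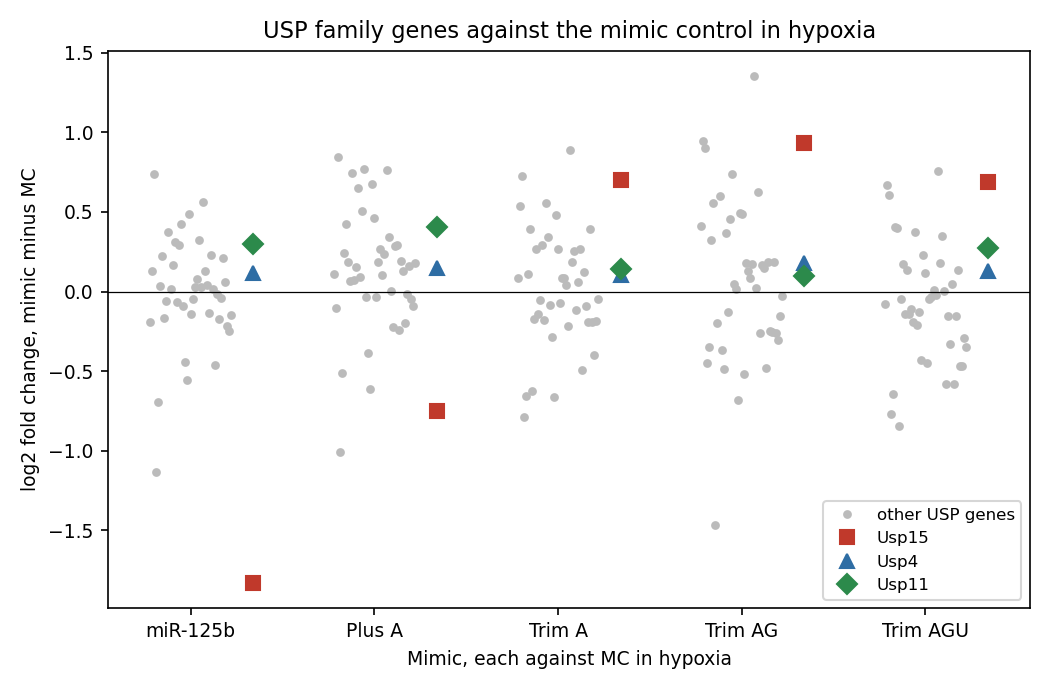
Log2 fold change against MC in hypoxia (vertical axis) of 44 ubiquitin-specific protease genes per mimic (horizontal axis), the 41 others in grey and *Usp15*, *Usp4* and *Usp11* as coloured symbols. *Usp15* is at -1.83 with miR-125b and -0.75 with Plus A and lies between 0.69 and 0.94 with the trimmed mimics, while *Usp4* and *Usp11* lie between 0.10 and 0.40; the *Usp15* values with miR-125b and Trim AGU are descriptions.

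Between hypoxia and normoxia, family calls up and down were 0 and 5 with miR-125b, 2 and 2 with Plus A, 2 and 4 with Trim A, 3 and 4 with Trim AG, and 2 and 4 with Trim AGU. These are 12.2%, 9.76%, 14.6%, 16.7% and 14.6% of the family genes tested, each below the 20.9% to 32.8% of all genes called in the same comparisons. Without both first normoxia replicates they were 0 and 4 with miR-125b and 2 and 3 with Plus A. *Usp1*, which deubiquitinates FANCD2 and PCNA, was lower in hypoxia under all 5 mimics (log2 fold changes -0.98 to -1.34), the opposite direction to *Usp11*. By size of the change *Usp15* was 38th with Plus A (15th without both), 28th with Trim A and 25th with Trim AG.

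Lists of known partners and substrates of the 3 proteases were read beside the same comparisons. The values are mRNA levels, whereas the proteases act on proteins. Whether a partner or substrate depends on its protease was therefore not tested, here or in the next paragraph. Of 11 genes of TGF-beta and SMAD signalling, called up and down compared with MC in hypoxia were 0 and 2 with miR-125b, 1 and 2 with Plus A, 0 and 3 with Trim A, 2 and 2 with Trim AG, and 0 and 4 with Trim AGU. These are 18.2%, 27.3%, 27.3%, 36.4% and 36.4% of the list, beside 21.9%, 24.8%, 28.1%, 37.2% and 23.8% of all genes in the same order. *Tgfbr2*, the type II TGF-beta receptor, fell with all 5 mimics, by 0.96 with Trim AG, 1.45 with Trim A, 1.66 with Trim AGU and amounts between these with miR-125b and Plus A, on the log2 scale. *Smad3*, a receptor-activated SMAD and known USP15 substrate, also fell with all 5, by 0.70, 0.62, 0.75, 1.24 and 0.89 in the order just given for the list's counts, which holds for all series of 5 values that follow. *Usp15* itself was below MC with miR-125b and Plus A and above it with the trimmed mimics. A link of *Usp15* to these mRNA levels was not tested. Of 9 subunits of the COP9 signalosome, called up and down were 0 and 1 with miR-125b (*Cops7b*, -0.74), 1 and 1 with Trim A (*Cops7a*, 0.62, and *Cops7b*, -0.59), and 2 and 0 with Trim AGU (*Gps1*, 0.76, and *Cops4*, 0.70). These are 11.1%, 22.2% and 22.2% of the list, each below the share of all genes called. With Plus A and with Trim AG 0 were called by edgeR and by DESeq2, with 6 and 6 at an unadjusted p under 0.05. Of 6 spliceosomal partners, called up and down were 1 and 1 with miR-125b and with Plus A, which is 33.3% of the list, and 1 and 0 with each trimmed mimic, which is 16.7%. *Prpf3*, the USP4 substrate, rose with all 5 mimics (0.66, 0.89, 0.74, 1.02 and 0.65), beside *Usp4* values of 0.10 to 0.18. *Prpf4*, which encodes a partner of PRPF3 in the same particle, fell with miR-125b (-0.65) and Plus A (-0.59). With Trim A the lowest value of this list was -0.58, just under the 1.5-fold limit, and 1 gene was down at an edgeR adjusted p under 0.05. The lowest values were -0.12 with Trim AG and -0.27 with Trim AGU. Of 12 other partners and substrates, at most 2 were called with any mimic.

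Between hypoxia and normoxia the SMAD list held no gene called up. Called down were 2 genes with miR-125b and with Plus A, 5 with Trim A and 4 with each of the shortest mimics, Trim AG and Trim AGU. These are 18.2%, 18.2%, 45.5%, 36.4% and 36.4% of the list, beside 20.9%, 22.8%, 26.5%, 32.8% and 27% of all genes. *Smad7*, the inhibitory SMAD, was lower in hypoxia with each (-1.14, -1.44, -1.23, -0.85 and -1.16), and so was *Smurf1*, a ubiquitin ligase that works with it (-0.86, -0.82, -1.05, -1.02 and -1.33). Of 12 other partners and substrates tested, 3 to 4 were up and 3 to 4 were down with each mimic, which is 50% to 66.7% of the list beside 20.9% to 32.8% of all genes. Of the 6 spliceosomal partners, *Prpf3* was called up with Trim A (0.59), Trim AG (0.62) and Trim AGU (0.65), and the list had 0 calls by edgeR and by DESeq2 with miR-125b and Plus A, with 4 genes at an unadjusted p under 0.05 in each by edgeR. *Smad7*, *Smurf1* and the 5 genes named next were still called under miR-125b and Plus A without both first normoxia replicates. Beside the rise of *Usp11*, its DNA repair partners *Brca2* (-1.05, -1.01, -1.41, -0.99 and -1.55) and *Palb2* (-0.98, -1.07, -1.29, -1.25 and -1.49) were lower in hypoxia. *Cdkn1a*, which encodes the cell cycle inhibitor p21 (0.93, 0.99, 1.21, 1.19 and 1.55), and *Mdm2*, the p53 ligase (0.65, 0.92, 1.27, 1.18 and 1.14), were higher. *Nfe2l2*, the oxidative stress factor NRF2, was also higher (0.72, 0.82, 1.14, 1.66 and 1.52). The COP9 list had 0 calls in each of these comparisons by edgeR and by DESeq2, with 8, 6, 3, 4 and 3 genes at an unadjusted p under 0.05.

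The genes most like *Usp15* over the 33 libraries were found by Pearson's r of log2 CPM among 11183 named genes, as a description in which the points share groups and sequencing. Of the 5 highest, 3 are given here. They were *Sept10*, a septin (r = 0.910), *Adipor1*, an adiponectin receptor (0.895), and *Cops2*, a COP9 signalosome subunit (0.877). The median r over all these genes was -0.0061. *Sept10* ran from 42.4 CPM in Hypoxia miR-125b to 114.9 CPM in Hypoxia Trim AG, the same lowest and highest groups as *Usp15*. Without the Hypoxia Trim AGU libraries *Sept10* ranked 2nd, *Adipor1* 3rd and *Cops2* 6th. Without both first normoxia replicates (31 libraries) the values of r were 0.909, 0.891 and 0.880. *Cops2* was higher than under miR-125b in hypoxia with Trim A (0.67), Trim AG (0.62) and Trim AGU (0.72) on the log2 scale. This is a description, because *Cops2* was picked here by its likeness to *Usp15* over the same libraries.

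**Figure D5:**
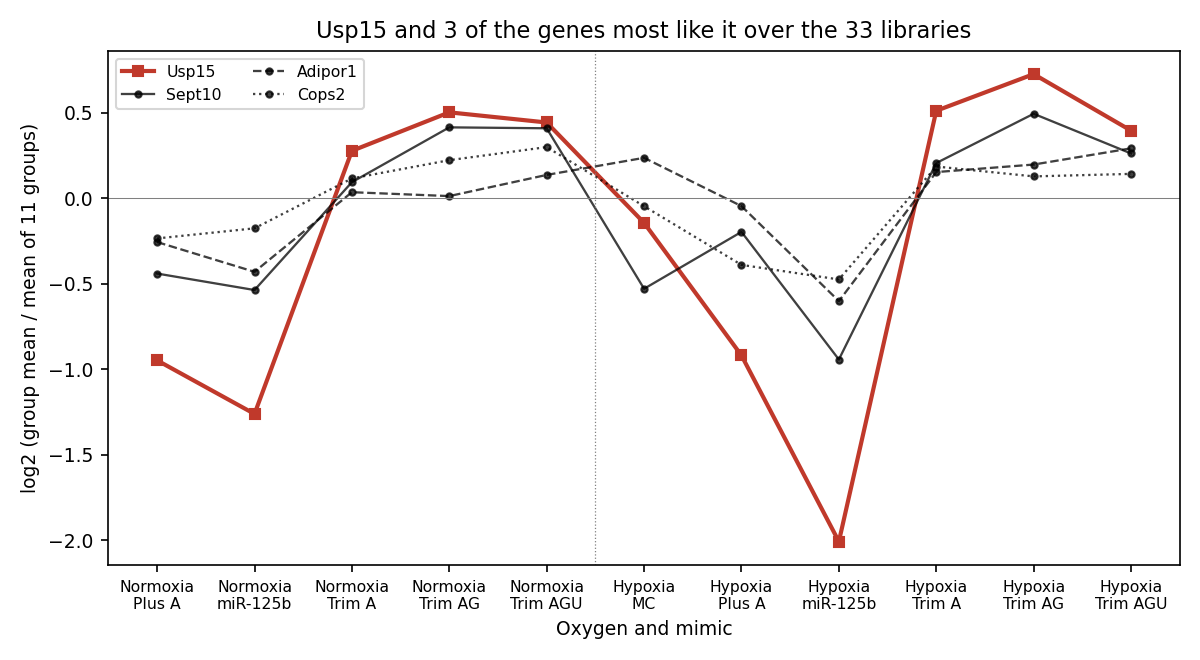
Log2 of the group mean CPM over the mean of 11 groups (vertical axis) for *Usp15*, *Sept10*, *Adipor1* and *Cops2*, by group (horizontal axis). Each is lowest under miR-125b in hypoxia, and *Usp15* has the widest range of the 4 (6.65 times from lowest to highest mean). The width is a description, because that lowest group was used to choose *Usp15*.

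*Usp4* was most like *Faslg*, the Fas ligand gene (r = 0.918), *Armc7* (0.907), *Alkbh3* (0.904), *Fam71f1* (0.903) and *Pdzd3* (0.90). *Usp11* was most like *Vhl* (0.966), *Itm2b* (0.954), *Cep95* (0.953), *Ccdc19* (0.952) and *Ahrr* (0.951), and 96 genes had r above 0.9 with it, compared with 1 for *Usp15* and 5 for *Usp4*. *Vhl* encodes the ligase component that marks HIF-alpha for degradation in oxygen. It lay at 47.5 to 63.0 CPM in the normoxia groups and 85.0 to 103.4 CPM in the hypoxia groups. Normoxia and hypoxia group means were separate for both *Usp4* and *Usp11*, so r was also taken within each condition. For *Usp4* the r with its 5 genes was 0.623 to 0.773 within hypoxia and 0.668 to 0.707 within normoxia. For *Usp11* it was 0.683 to 0.814 within hypoxia and 0.506 (*Cep95*) to 0.820 (*Vhl*) within normoxia.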

How the data were processed

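Poly-A, non-stranded RNA libraries of H9C2 cells were sequenced, and reads were counted per gene by the authors. HISAT2 and StringTie are named in the submitters' processing notes, and the build is not given in the sources used here. The authors deposited 12 comparison tables. In 11 of them read counts per gene and FPKM values, which the authors scaled by gene length and depth, are given for each library. The twelfth holds the authors' normalized signal as group means, used as their values. The deposited fold changes and p-values of the authors' own comparisons were not used.

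Counts of 33 libraries were joined on the gene identifier, with 0 conflicts between tables and absent genes set to 0. CPM were scaled to the library total. Each pair of groups (6 libraries) was fitted by edgeR 4.0.16 (quasi-likelihood test, TMM, filterByExpr, R 4.3.3) with Benjamini-Hochberg adjustment over all genes tested (14720 to 15603), and 4 interaction fits held 12 libraries each. A call needed an adjusted p under 0.05 and at least 1.5-fold. On simulated counts for Trim A against MC in hypoxia (15183 genes), 81.3% of genes changed 2-fold and 98.0% of those changed 4-fold were recovered, with 6.53% false calls. For the interaction with Trim AG (15603 genes) it was 76.0% and 94.7%, with 6.03% false calls. The false calls are a share of all calls. Each of 3 simulations changed only 200 genes, all above 1 CPM. In the data 4264 genes were called for Trim A against MC and 1757 for the interaction, so these rates may not carry over. Alternatives were DESeq2 1.42.0 with its own size factors, no filter on low counts, other fold limits, a replicate block and each replicate left out. Log2 CPM for likeness used a prior count of 2.

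The 3 genes and the gene lists were chosen with earlier results of these data known. Named genes were the members, the 5 genes most like each (mean of at least 1 CPM), up to 4 called genes per list and comparison by size of the log2 fold change, and coding genes within 500 kb, up to 3 on each side. Some of the genes most like *Usp15* are not reported here. Library totals, 28361216 to 42672584 counts, set the counting precision.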

Additional observations from a re-analysis of the deposited data

How the results depend on the processing

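Each call for the 3 genes was recomputed under the alternatives, and no direction of a called value was reversed. When each replicate was left out in turn, *Usp15* against MC in hypoxia stayed between -0.835 and -0.647 with Plus A, 0.631 and 0.778 with Trim A, and 0.834 and 1.04 with Trim AG on the log2 scale. Against miR-125b in normoxia it stayed between 1.38 and 1.90 with Trim A, 1.55 and 2.08 with Trim AG, and 1.53 and 2.05 with Trim AGU. The Trim A call was lost without Normoxia Trim A replicate 2 (1.55). *Usp11* between hypoxia and normoxia stayed between 0.512 and 0.652 with miR-125b, where the call was lost at 0.512 and 0.580, and it was 0.512 without both first normoxia replicates, since these values fall under the 1.5-fold limit. With Plus A it stayed between 0.668 and 0.825, with Trim AG between 0.705 and 0.777, and with Trim AGU between 0.778 and 0.872. With a 2-fold limit the calls among the 3 genes fell to 0 of 13 against MC and 0 of 13 between hypoxia and normoxia. The shares of all genes at that limit are not given here. With no fold limit these calls were 8 and 7 in place of 3 and 4. At that setting, genes up and down against MC numbered 2292 and 2199 of 15026 (Trim AGU) to 4560 and 4533 of 15315 (Trim AG). Between hypoxia and normoxia they numbered 2275 and 2196 of 14811 (Trim AGU) to 4168 and 4170 of 15256 (Trim AG). With no fold limit 1 of 8 was called against miR-125b in hypoxia, and 3 of 11 between isomiRs that differ by 1 trimmed base, in place of 0 in each. The 1 was *Usp11* with Trim AG, where 3194 genes were up and 3142 down of 15305. The 3 were from Trim A to Trim AG in normoxia, where 2463 genes were up and 2652 down of 14799. Leaving out replicates gave 2 to 3 calls against miR-125b in normoxia and 3 to 5 between hypoxia and normoxia. DESeq2 gave the same number of calls as edgeR in each set. TMM moved the median of all genes by more than 0.1 (log2) in Trim AGU against MC (0.134) and in hypoxia against normoxia under Plus A (-0.106).

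Replicate numbers did not pair the libraries. In 0 of 22 comparisons did every pair of same-numbered libraries deviate together with r above 0.1 (pair correlations -0.161 to 0.287), and 23 of 66 library checks were best with their own number. With the replicate number as a block the counts of calls were unchanged in each set of tests, and *Usp15* against MC in hypoxia was -0.76 with Plus A, 0.70 with Trim A and 0.93 with Trim AG. From Trim A to Trim AG in hypoxia the blocked *Usp15* value was 0.22 (edgeR adjusted p = 0.0116), still under the fold limit.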

Other observations

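The genes beside the 3 loci did not all follow them. *Mon2*, the coding gene next after *Usp15* on the same strand, starts 29989 bases beyond its end. It lay at 86.4 to 133 CPM in the group means and was called in 0 of 26 fits by edgeR. *Usp15* ran from 19.0 to 126 CPM, as a description. On the X chromosome *Timp1*, a metalloproteinase inhibitor near *Usp11*, was lower in hypoxia with miR-125b (-1.10), Plus A (-1.23), Trim A (-1.05) and Trim AG (-0.89), the opposite direction to *Usp11*. *Uba1*, the ubiquitin-activating enzyme in the same stretch, was lower in hypoxia with Trim A (-0.67) and Trim AG (-0.69). *Araf*, also near *Usp11*, had r = 0.810 with it (log2 CPM, 33 libraries), compared with -0.865 for *Timp1*, -0.810 for *Uba1* and -0.497 for *Syn1*. *Cdk16*, the nearest of these genes at 3256 bases, had r = 0.170, and *Rbm10* had 0.027. *Klhdc8b*, near *Usp4*, was higher in hypoxia with miR-125b (0.59), Trim AG (0.84) and Trim AGU (0.74). *Usp4* was not called in these comparisons but moved in the same direction (0.16, 0.37 and 0.29), and its r with *Klhdc8b* was 0.861. Its r with the other named coding genes beside it ran from -0.259 (*Ccdc36*) to 0.278 (*Gpx1*). All these r values pool hypoxia and normoxia, and r within each condition was not taken for genes beside the loci. Without both first normoxia replicates *Klhdc8b* with miR-125b was 0.56, under the 1.5-fold limit, and *Timp1* was still called with miR-125b (-1.02) and Plus A (-1.31). *Rhoa*, a small GTPase gene near *Usp4*, was higher than under MC in hypoxia with Trim A (0.63), Trim AG (0.86) and Trim AGU (0.75). Apart from r, the values are log2 fold changes by edgeR, and all but those of *Usp4* and the *Klhdc8b* value of 0.56 are of calls.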
